A study of Anser cygnoides with 6 samples.

Results

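The transcripts described here are the lncRNAs of goose myoblasts that lie between annotated genes and have at least 2 exons. They were taken from the table of lncRNA transcripts by its own columns, as those with class code u (no overlap with a known gene) and a number of exons of 2 or more. This gave 951 of 14993 lncRNA transcripts, or 6.34%, and 12.6% of the 7538 intergenic ones. The other 6587 intergenic lncRNAs have a single exon. Expression was not used to choose them, although the exon numbers come from an assembly of reads of the same libraries.

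The cells were primary myoblasts of the Shitou goose (Anser cygnoides), prepared from embryos and described as mixed and then split into cultures. Of the 6 cultures sequenced, 3 GM cultures were harvested in the proliferation stage, in medium with 15% fetal bovine serum. The methods also name a higher percentage as the one replaced to induce differentiation, so the GM serum level is uncertain. They give a higher cell density at the start of differentiation than at the harvest of GM. The 3 DM cultures were collected in the differentiation stage, after 2 to 4 days in medium with 2% horse serum per the labels, while the methods name a single time within this range. All cultures came from the same goose breed, and no genotype or drug differs between the stages. Each culture gave 1 library of RNA depleted of ribosomal RNA, so n = 3 in each stage, and p-values measure the spread between these libraries. The methods describe a mixed pool of myoblasts but also speak of data from separate geese, so whether the libraries differ as cultures or as animals is not settled.

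LncRNAs are transcripts of more than 200 nucleotides that are not translated into protein. Those between genes, often called lincRNAs, are usually spliced less efficiently and are less abundant than mRNAs. Several act in myogenesis, where they bind transcription factors, chromatin regulators or miRNAs, while for most no function is known. A splice junction also fixes the strand of an assembled transcript, which a single-exon transcript does not have. Of the single-exon intergenic lncRNAs, 6002 carry no strand in the table.

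The 951 lncRNAs come from 744 loci on 280 scaffolds, with 512 on the plus strand and 439 on the minus strand. Most had the smallest number of exons that the choice allowed. There were 785 with 2 exons, 122 with 3, 24 with 4, 11 with 5, 6 with 6 and 3 with 7. The spliced length had a median of 1183 bases, with quartiles of 536 and 2420 and a range of 201 to 16986. The single-exon intergenic lncRNAs had a median length of 473 bases. The span in the genome had a median of 2894 bases and reached 143542. The mean gap between neighbouring exons, which is the intron length where the gap is an intron, had a median of 759 bases. It was under 50 bases in 96 lncRNAs, down to 20, which is shorter than most vertebrate introns.

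Of the loci, 619 held 1 intergenic multi-exon lncRNA and 125 held 2 or more, together 332 isoforms. The most isoforms were assembled at MSTRG.29438 (12 isoforms) and MSTRG.17183 (10 isoforms). In 51 lncRNAs the strand, start and end were the same as in another of the set, so that any difference lies in the inner exon structure, which was not compared. In a count that is not exclusive of these, 88 were overlapped by a member of the set on the other strand. The loci were not always clear of other transcripts, since 68 loci also held a lncRNA of another class and 16 lncRNAs had a locus that is also in the gene table.

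FPKM (fragments scaled by transcript length and by the number of mapped fragments) was used as the level of each transcript. The table lists 0.0001 FPKM in place of 0, values at or under 0.0001 FPKM were counted as 0 here (13 values of the whole lncRNA table were smaller still), and the depth behind the values is unknown. Of the 951 lncRNAs, 693 were above 0 in all 6 libraries, 198 in 2 to 5 libraries, 59 in 1 library and 1 in none. The mean over the 6 libraries had a median of 1.29 FPKM, with quartiles of 0.783 and 2.32. It was at least 5 FPKM in 115 lncRNAs and at least 10 FPKM in 68, of which 21 belong to the 2 overlapping loci MSTRG.29438 and MSTRG.29439.

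The labels of the cultures were checked with marker genes. MYOD1, which commits cells to the myogenic lineage, had 61.7, 70.9 and 64.2 FPKM in GM against 28.1, 26.6 and 27.2 in DM. PAX7 (satellite cells), MYF5 and MYF6 were also lower in DM, while MYL3, MYH15 and TNNI1, which encode proteins of the contractile apparatus, were called higher. Other contractile markers were not called. ACTC1, the most abundant, had 718, 800 and 818 FPKM in GM and 586, 571 and 570 in DM (log2 fold change -0.43, limma adjusted p = 0.00729). TNNT2 had a limma adjusted p of 0.261. TNNC1 had 2.57, 2.86 and 2.93 FPKM in GM and 5.86, 5.66 and 6.06 in DM (log2 fold change 0.86, limma adjusted p = 0.00102). MEF2C of the same list was also higher in DM without a call (log2 fold change 0.54, limma adjusted p = 0.00142). The summed FPKM of the muscle list, of which ACTC1 made up most, ran from 879 to 981 in GM and from 729 to 747 in DM. MYOG, which is induced on differentiation, had 25.5, 29.0 and 24.4 FPKM in GM and 21.3, 20.7 and 15.4 in DM and was not called (limma adjusted p = 0.0528). Of the 15 muscle markers 12 were in the table, and DES, CKM and MYMK were not analysed here. Fibroblast markers moved with the stage, since the summed FPKM of the 7 found of 8 ran from 2026 to 2067 in GM and from 4272 to 4533 in DM, with 4 of the 6 tested called higher (COL1A2, LUM, DCN and PDGFRA). Fewer cells of a type and less RNA per cell cannot be told apart here, and the part of this shift in the lncRNA changes below was not tested. The summed FPKM of the 5 endothelial markers ran from 2.5 to 2.66 in GM and from 1.28 to 1.36 in DM, of which PECAM1 made up most. Of the other lists, the adipocyte gene PPARG was called lower and the epithelial gene TP63 higher in DM.

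The median level of the set was compared with other classes within each library. It was 1.48, 1.34 and 1.38 FPKM in GM_1 to GM_3 and 1.27, 1.11 and 1.12 FPKM in DM_1 to DM_3. The GM libraries were all above the DM libraries. The single-exon intergenic lncRNAs had medians of 1.28, 0.923 and 1.07 FPKM in GM and 0.945, 0.646 and 0.657 in DM. Multi-exon transcripts were thus higher in 6 of 6 libraries, by 0.52 ± 0.23 on the log2 scale (SD over 6 libraries, difference of medians). An exact sign-flip permutation test over the 6 libraries gave p = 0.0312, the smallest it can give, and 0.0417 after adjustment over the 4 classes compared. The transcripts were assembled from these same libraries, and a multi-exon model needs reads across a junction, so exon number is not independent of level. The test measures only how steady the difference was across libraries, and it cannot decide whether exon number and level are linked. This also holds for the comparison with all other lncRNAs below.

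Antisense exonic lncRNAs (478, which overlap an exon of a gene on the other strand) were higher than the set in 6 of 6 libraries. Their medians were 1.76, 1.57 and 1.65 FPKM in GM and 1.56, 1.27 and 1.36 in DM. The difference of the set to them was -0.25 ± 0.04 on the log2 scale (SD, n = 6, exact sign-flip permutation p = 0.0312, adjusted 0.0417). Whether the authors' quantification used the strand is not given, so reads of antisense exonic lncRNAs and of the genes they overlap cannot be told apart. With the 867 multi-exon intronic lncRNAs no order was found. The set was higher in 2 of 6 libraries, both DM, with a difference of -0.10 ± 0.18 on the log2 scale (SD, n = 6, exact sign-flip permutation p = 0.281). Against all other lncRNAs together the set was higher by 0.44 ± 0.22 (SD, n = 6, exact sign-flip permutation p = 0.0312, adjusted 0.0417).

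**Figure D1:**
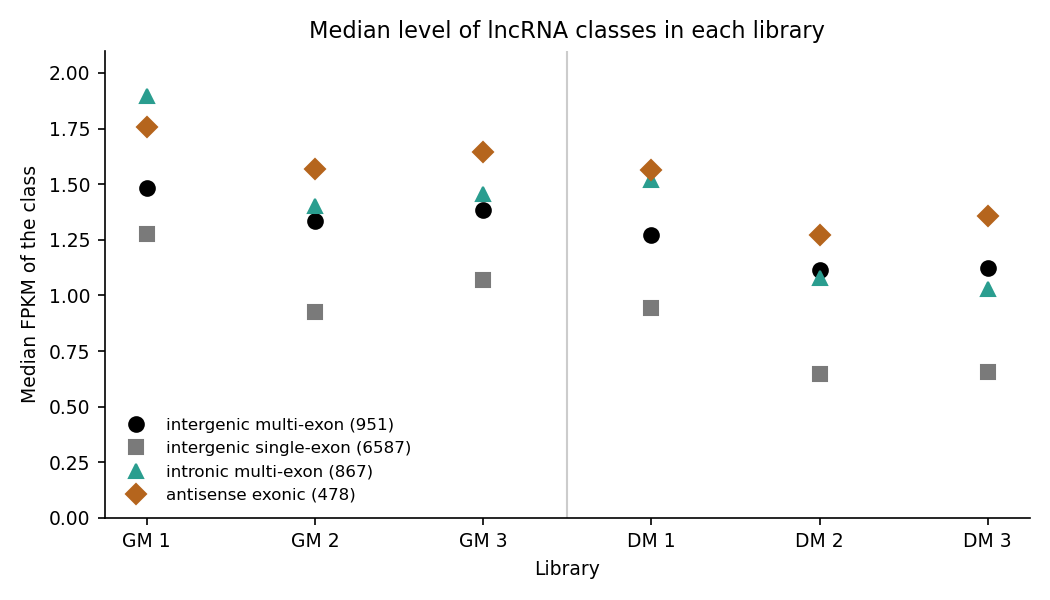
Median FPKM (y axis) of 4 lncRNA classes in each library (x axis), with the number of transcripts of a class in parentheses. The intergenic multi-exon lncRNAs (black) lay above the intergenic single-exon ones (grey squares) and below the antisense exonic ones (diamonds) in all 6 libraries, and all classes were lower in DM_2 and DM_3 than in GM_1.

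As in the set, all GM medians were above all DM medians for antisense exonic lncRNAs (lowest GM 1.57, highest DM 1.56 FPKM). The same held for multi-exon lncRNAs that share a junction with a gene (1.21 and 1.18 FPKM). It also held for those overlapping exons on the same strand (1.37 and 1.25 FPKM), so this order was not particular to the set. The stages overlapped in the medians of the single-exon intergenic lncRNAs, where DM_1 was above GM_2. In the multi-exon and the single-exon intronic lncRNAs, DM_1 was above GM_2 and GM_3. The tested lncRNAs as a whole had medians of 1.42, 1.08 and 1.21 FPKM in GM and 1.14, 0.809 and 0.818 in DM, with DM_1 above GM_2 as well. Those of the tested genes were 5.36, 5.36 and 5.43 FPKM in GM and 5.20, 5.32 and 5.47 in DM, with the stages overlapping. In limma on log2(FPKM + 1), the median log2 fold change (DM over GM) was -0.22 over 12988 tested lncRNAs and -0.14 over the 806 tested members of the set, whose quartiles were -0.48 and 0.23. Members with a mean under 0.5 FPKM, 145 in number, were not tested. Of the tested ones 327 had a fold change above 0 and 479 below.

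To find which of these lncRNAs differed between stages, transcripts were called at an adjusted p-value (Benjamini-Hochberg over all tested lncRNAs) under 0.05 where the log2 fold change also passed 1 or -1. In the set 15 lncRNAs at 13 loci were higher in DM and 27 at 25 loci were lower in DM. These are 1.86% and 3.35% of those tested, beside 0.562% and 1.45% of all tested lncRNAs. The single-exon intergenic lncRNAs, just outside the choice, had 22 higher and 68 lower of 5847 tested (1.54% called), and the lncRNAs with 2 exons, just inside it, had 11 higher and 21 lower of 670 tested (4.78% called). With 3 exons, 2 were higher and 6 lower of 102 tested. The classes also differ in level, with a median of the mean FPKM of 0.892 for single-exon intergenic and 1.30 for 2-exon lncRNAs. A log2 fold change of 1 on the log2(FPKM + 1) scale is harder to reach at low FPKM. How much of the difference in called shares comes from level was not tested. By length, the called share was 5.49% under 500 bases (182 tested), 3.91% from 500 to under 1000 (179 tested), 5.21% from 1000 to under 2000 (192 tested), 5.67% from 2000 to under 5000 (194 tested) and 6.78% from 5000 bases on (59 tested).

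The split between directions depends on how libraries are scaled. When each library was scaled to the median of the tested lncRNAs, 31 of the set were higher and 11 lower in DM, beside 1.37% and 0.554% of all tested lncRNAs. After this scaling the median log2 fold change was 0.12 in the set and 0.00 over all tested lncRNAs. Of the lncRNAs called in the fit on the deposited FPKM, 14 of 15 higher and 11 of 27 lower ones were called the same way. Quantile normalization gave 27 higher and 16 lower, beside 1.19% and 0.693%. With libraries scaled to the median of the tested genes, 15 were higher and 25 lower, and the share over all lncRNAs was not counted.

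Single libraries also moved the counts. Without GM_1 there were 6 higher and 10 lower, without GM_2 7 and 9, and without GM_3 8 and 8. Without DM_1 there were 11 and 26, without DM_2 5 and 11, and without DM_3 12 and 15. Calls over all lncRNAs were not counted in these fits. A general loss of calls with fewer libraries therefore cannot be told apart from a trait of the set. Of the 42 called lncRNAs, 4 higher and 6 lower ones were called whichever library was left out. The higher ones were MSTRG.29773.1, MSTRG.26339.1, MSTRG.26339.2 and MSTRG.23603.2. The lower ones were MSTRG.29438.12, MSTRG.28448.1, MSTRG.28064.6, MSTRG.5390.1, MSTRG.21788.1 and MSTRG.25900.1. With the exception of MSTRG.25900.1, all of these were also called after scaling to the median of the tested lncRNAs.

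In each called lncRNA the 3 values of one stage lay apart from those of the other. Over all 806 tested members this held for 113 (14.02%) with DM above GM and 194 (24.1%) with DM below, beside 7.3% and 25% of all tested lncRNAs. The levels were low. The stage with the higher mean had a median of 2.89 FPKM in the lncRNAs that rose and 4.03 FPKM in those that fell. Of those that rose, 11 of 15 were above 0 in every library, and of those that fell, 20 of 27.

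**Figure D2:**
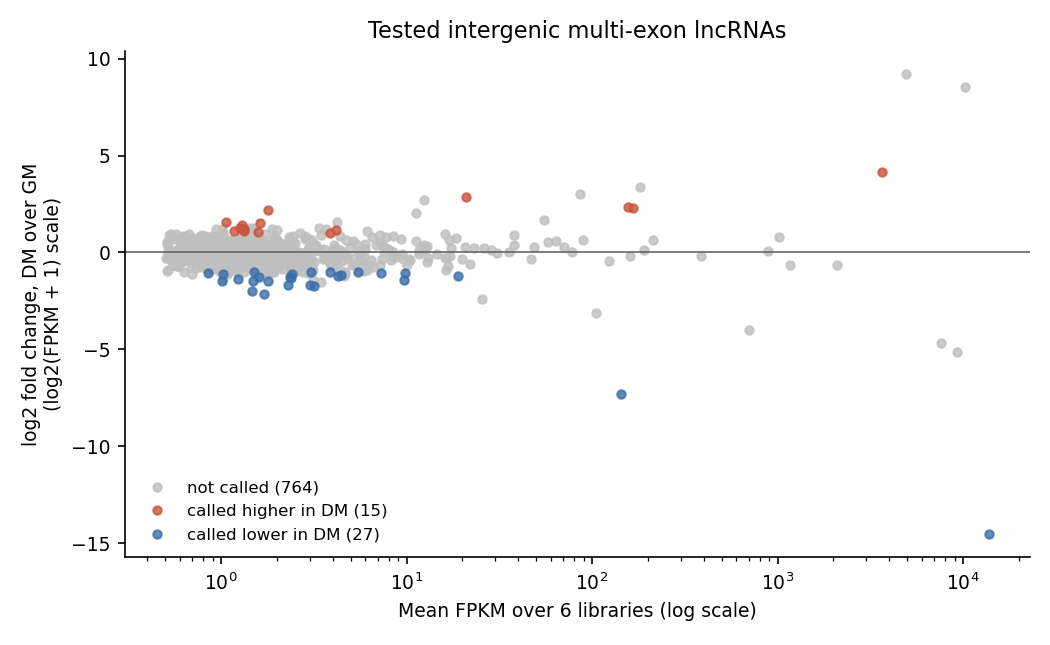
Log2 fold change (y axis, DM over GM, on the log2(FPKM + 1) scale) against the mean FPKM of the 6 libraries (x axis, log scale) for the 806 tested intergenic multi-exon lncRNAs. The 15 called higher (red) and the 27 called lower (blue) mostly have a mean under 10 FPKM, and the widest fold changes, called or not, belong to isoforms of MSTRG.29438 and MSTRG.29439.

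Among the lncRNAs that rose, MSTRG.29773.1 had the smallest adjusted p-value. It is a transcript of 2 exons and 203 bases on the minus strand (GooseV1.0, NW_013186205.1:32348-32628). It had 3.35, 5.40 and 4.08 FPKM in GM and 35.2, 40.8 and 36.2 FPKM in DM. Every DM culture was more than 6 times the highest GM culture. The log2 fold change was 2.88 (SE 0.18, limma adjusted p = 0.00101) while the mean FPKM had a log2 ratio of 3.13.

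Next to MSTRG.29438.11, which is described below, the most abundant lncRNAs that rose came from MSTRG.26339 (minus strand, NW_013185914.1:6649-8209). Its isoforms MSTRG.26339.1 and MSTRG.26339.2 share both ends and the length of 349 bases, so the assignment of reads between them is uncertain. MSTRG.26339.1 had 63.8, 52.0 and 52.8 FPKM in GM and 271, 275 and 278 FPKM in DM. MSTRG.26339.2 had 52.1, 51.6 and 46.5 FPKM in GM and 219, 297 and 274 FPKM in DM. In both, the DM cultures were at least 3 times the GM cultures, with log2 fold changes of 2.27 (SE 0.17, limma adjusted p = 0.00161) and 2.36 (SE 0.19, limma adjusted p = 0.00175).

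The same end of this scaffold held other transcripts that were higher in DM. MSTRG.26337.1 (plus strand, bases 36 to 1201, 293 bases long) had 0.668, 0.0601 and 0.309 FPKM in GM and 2.34, 1.82 and 2.39 in DM (log2 fold change 1.26, limma adjusted p = 0.0227). Its call held in 1 of the 6 fits with a library left out (limma adjusted p up to 0.0994). With a pseudocount of 0.1 the call was lost (limma adjusted p = 0.0561). MSTRG.26336.1 (minus strand, bases 36 to 1991) overlaps MSTRG.26337.1, and as the use of the strand is not given, their reads cannot be told apart. With 0.999, 0.741 and 0.807 FPKM in GM and 2.32, 2.27 and 3.17 in DM it passed the test but not the limit on the fold change (0.95, limma adjusted p = 0.029). A single-exon intergenic lncRNA just outside the set, MSTRG.26338.1, rose as well (log2 fold change 1.24, limma adjusted p = 0.0179). These transcripts were noticed after their values had been seen, apart from MSTRG.26339.

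MSTRG.23603.2 (minus strand, NW_013185853.1:1381291-1383165, 1063 bases) was listed at 0 in the 3 GM libraries and had 4.44, 3.87 and 2.46 FPKM in DM (limma adjusted p = 0.00288). The other isoform of this locus, MSTRG.23603.1, had 1.52, 0.641 and 1.95 FPKM in GM and 1.02, 1.17 and 1.98 in DM, with the stages overlapping. The locus was therefore transcribed in both stages, and the isoform listed at 0 differs from the other in both ends.

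Further lncRNAs rose between low levels. MSTRG.24432.1 (3 exons, plus strand, NW_013185866.1:1378061-1404128) had 1.93, 2.01 and 2.71 FPKM in GM and 6.51, 6.11 and 5.74 in DM (log2 fold change 1.15, SE 0.16, limma adjusted p = 0.0137). MSTRG.19737.1 (minus strand, NW_013185782.1:533373-535055) had 0.462, 0.345 and 0.332 FPKM in GM and 1.92, 2.21 and 1.82 in DM, with a log2 fold change of 1.11. Its limma adjusted p was 0.0146. MSTRG.8618.1 (4 exons, NW_013185681.1:619293-634321) was listed at 0 in GM_1, with 0.512 and 0.545 FPKM in GM_2 and GM_3 and 3.33, 3.32 and 2.02 FPKM in DM. In all 3 the stages were apart, but the calls of MSTRG.19737.1 and MSTRG.8618.1 held in only 1 of the 6 fits with a library left out, and that of MSTRG.24432.1 in 3, where the highest limma adjusted p-values were 0.0920, 0.0864 and 0.0680.

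MSTRG.5995.1 (plus strand, NW_013185670.1:6946489-6952153) is 5617 bases long with a gap of 48 bases between its exons. It had 2.17, 2.15 and 2.34 FPKM in GM and 6.38, 5.41 and 4.81 in DM (log2 fold change 1.01, SE 0.15, limma adjusted p = 0.0191), and the call held in 1 of the 6 fits with a library left out.

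Of the lncRNAs that fell, several were listed at 0 throughout DM, so that no fold can be given. MSTRG.28448.1 (minus strand, NW_013186008.1:238117-239781, 555 bases) had 3.04, 3.13 and 2.67 FPKM in GM (limma adjusted p = 0.00161). MSTRG.28064.6 (3 exons, plus strand, NW_013185987.1:322645-325724, 1621 bases) had 4.36, 3.06 and 2.83 FPKM in GM (limma adjusted p = 0.00231). The GM cultures lay close together for MSTRG.28448.1 and further apart for MSTRG.28064.6. For MSTRG.28064 the isoform MSTRG.28064.3, which has nearly the same ends and also 3 exons, had 1.38, 0.977 and 1.49 FPKM in GM and 4.43, 0 and 3.24 FPKM in DM, so that the fall of one isoform does not describe the locus.

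Of the 27 lncRNAs that fell, 20 were above 0 in every library, MSTRG.5390.1 and MSTRG.21788.1 among them. MSTRG.5390.1 (plus strand, NW_013185668.1:2271351-2277563, 5831 bases) had 5.55, 5.35 and 4.56 FPKM in GM and 1.02, 0.864 and 0.833 in DM. Its log2 fold change was -1.69 (SE 0.15, limma adjusted p = 0.00257) while the mean FPKM had a log2 ratio of -2.51. MSTRG.21788.1 (minus strand, NW_013185816.1:1383501-1384282, 704 bases) had 4.25, 3.62 and 4.22 FPKM in GM and 0.518, 0.793 and 0.414 in DM, with a log2 fold change of -1.68 (SE 0.16, limma adjusted p = 0.00377). In both, the lowest GM culture was over 4 times the highest DM culture.

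MSTRG.13061.1 (plus strand, NW_013185713.1:3942966-3958192) had 3.60, 2.53 and 3.22 FPKM in GM and 0.635, 0.319 and 0.414 in DM (log2 fold change -1.50, limma adjusted p = 0.00873). MSTRG.13615.1 (plus strand, NW_013185716.1:4109079-4119181) had 2.52, 2.04 and 2.05 FPKM in GM and 0.407, 0.192 and 0.165 in DM (log2 fold change -1.35, limma adjusted p = 0.0098). Its call held in 2 of the 6 fits with a library left out, with limma adjusted p-values up to 0.0569. The other isoform at this locus, MSTRG.13615.2, had 1.08, 1.30 and 1.35 FPKM in GM and 0.349, 0.353 and 0.269 in DM and was not called (log2 fold change -0.76, limma adjusted p = 0.0597).

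The most abundant of the fallen lncRNAs outside MSTRG.29438 was MSTRG.5200.1 (minus strand, NW_013185667.1:6265246-6275051, 4409 bases). It had 26.6, 26.9 and 26.7 FPKM in GM, with the replicates close together, and 12.5, 10.9 and 9.43 FPKM in DM. The log2 fold change was -1.22 (SE 0.15, limma adjusted p = 0.0098) and was -0.81 after scaling to the median of the tested lncRNAs, where limma gave an adjusted p of 0.0772. MSTRG.11983.5 (plus strand, NW_013185705.1:966729-976393, 4039 bases) had 13.5, 16.5 and 13.6 FPKM in GM and 4.56, 3.88 and 5.98 in DM (log2 fold change -1.43, limma adjusted p = 0.00996). It carried most of the FPKM of its 5 isoforms in GM, and the locus sum was called lower too (log2 fold change -1.14, limma adjusted p = 0.0298). For MSTRG.11983.5 the limma adjusted p after scaling to the median of the tested lncRNAs was 0.0764.

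**Figure D3:**
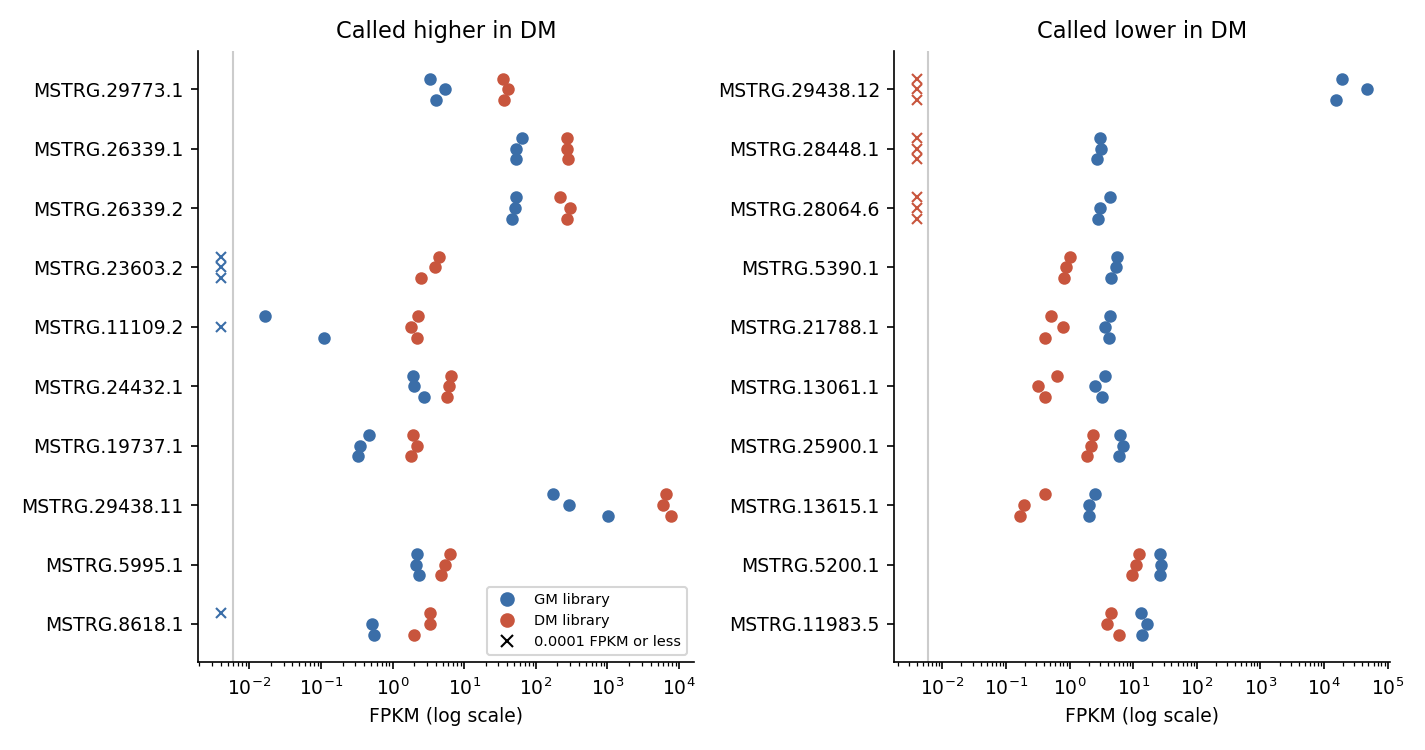
FPKM in each library (x axis, log scale) of the 10 lncRNAs called higher (left) and the 10 called lower in DM (right) with the smallest adjusted p-values. Blue points are GM and red points DM libraries, crosses left of the grey line are libraries at 0.0001 FPKM or less, and in no row do the stages overlap.

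Several lncRNAs that fell lie close together on NW_013185901.1. MSTRG.25900.1 (plus strand, bases 805809 to 808072) had 6.26, 7.02 and 5.94 FPKM in GM and 2.30, 2.21 and 1.89 in DM (log2 fold change -1.24, SE 0.15, limma adjusted p = 0.00873). MSTRG.25899.1, on the minus strand, spans bases 801452 to 808072 and so overlaps it up to the same last base. It had 7.68, 8.38 and 6.90 FPKM in GM and 3.86, 2.90 and 3.09 in DM (log2 fold change -1.02, limma adjusted p = 0.0205). Whether the quantification used the strand is not given, so both calls may rest on the same reads. An overlap by a member on the other strand was found for 8 of the 42 called lncRNAs, beside 88 of all 951. Nearby, MSTRG.25897.1 (plus strand, bases 796796 to 798403) had 6.97, 5.24 and 7.38 FPKM in GM and 3.14, 2.05 and 1.90 in DM (log2 fold change -1.17, limma adjusted p = 0.026). Its other isoform, MSTRG.25897.2, overlapped between stages, with 0, 4.37 and 2.45 FPKM in GM and 1.38, 0.376 and 1.08 in DM (limma adjusted p = 0.604). The calls of MSTRG.25899.1 and MSTRG.25897.1 each held in 1 of the 6 fits with a library left out. MSTRG.25901.1 at bases 808352 to 809620 was the most abundant, with 24.4, 25.8 and 28.9 FPKM in GM and 23.2, 14.9 and 14.2 in DM, and was not called (log2 fold change -0.60, limma adjusted p = 0.13). This grouping was noticed after the values had been seen, and after scaling to the median of the tested lncRNAs none of the 3 loci passed the limit on the fold change (-0.91, -0.66 and -0.84).

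The highest FPKM values of the whole lncRNA table came from 1 place. The loci MSTRG.29438 (plus strand, 12 isoforms) and MSTRG.29439 (minus strand, 9 isoforms) cover the same bases, NW_013186119.1:83485-86243, and all 21 isoforms have 2 exons. Together they held between 50.6% and 78.2% of the summed FPKM of all 14993 lncRNAs in a library. Of the FPKM outside both loci, the rest of the set held between 10.4% and 13.5%. The sum of MSTRG.29438 was 22558, 57491 and 20029 FPKM in GM and 9533, 8668 and 13409 in DM. The sum of MSTRG.29439 was 22447, 10744 and 51559 FPKM in GM and 20823, 18700 and 83334 in DM. The plus-strand sums were apart between stages but not called (log2 fold change -1.52, SE 0.40, limma adjusted p = 0.0611), and the minus-strand sums overlapped (log2 fold change 0.46, SE 0.67, limma adjusted p = 0.678).

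Within the plus-strand locus, isoforms were called in opposite directions. MSTRG.29438.12 (bases 85938 to 86242, 275 bases with a gap of 30) had 18928, 48150 and 15323 FPKM in GM and was listed at 0 in the 3 DM libraries (limma adjusted p = 4.23e-06). MSTRG.29438.10 had 386, 449 and 23.0 FPKM in GM and was listed at 0 in DM (limma adjusted p = 0.0127). That call held in 4 of the 6 fits with a library left out (limma adjusted p up to 0.0651). MSTRG.29438.11, with the same ends as MSTRG.29438.10, rose from 176, 294 and 1023 FPKM in GM to 6661, 6038 and 7789 FPKM in DM (log2 fold change 4.17, SE 0.60, limma adjusted p = 0.0154). Its call held in 3 of the 6 fits with a library left out and was lost after scaling to the median of the tested lncRNAs (limma adjusted p = 0.0597). As they share both ends, the assignment of reads between MSTRG.29438.10 and MSTRG.29438.11 is uncertain. MSTRG.29438.2 differed less, with 49.8, 70.3 and 69.8 FPKM in GM and 78.4, 74.9 and 79.6 in DM, where the DM cultures were above the GM cultures without a call (limma adjusted p = 0.337).

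Other isoforms of both loci came and went between cultures of the same stage. MSTRG.29438.6 was above 0 in GM_2 alone (4192 FPKM), MSTRG.29438.9 in GM_1 alone (633 FPKM), MSTRG.29438.3 in DM_1 alone (1083 FPKM) and MSTRG.29438.8 in DM_2 alone (516 FPKM). MSTRG.29438.7 was above 0 only in GM_3 and DM_3, at 2526 and 2807 FPKM. On the minus strand, MSTRG.29439.7 had 851 FPKM in DM_2 and 60940 in DM_3 and was listed at 0 in the other libraries. MSTRG.29439.4 had 13083 and 16416 FPKM in DM_1 and DM_2 and was listed at 0 in DM_3 and in GM. MSTRG.29439.2 had 11532, 9501 and 13017 FPKM in GM and 51.3, 26.2 and 21842 in DM. MSTRG.29439.8 had 10663, 338 and 28482 FPKM in GM and 4976, 1215 and 0 in DM. None of the 9 minus-strand isoforms was called. Whether the authors' quantification used the strand is not given in the sources used here, so reads of the overlapping loci cannot be told apart.

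**Figure D4:**
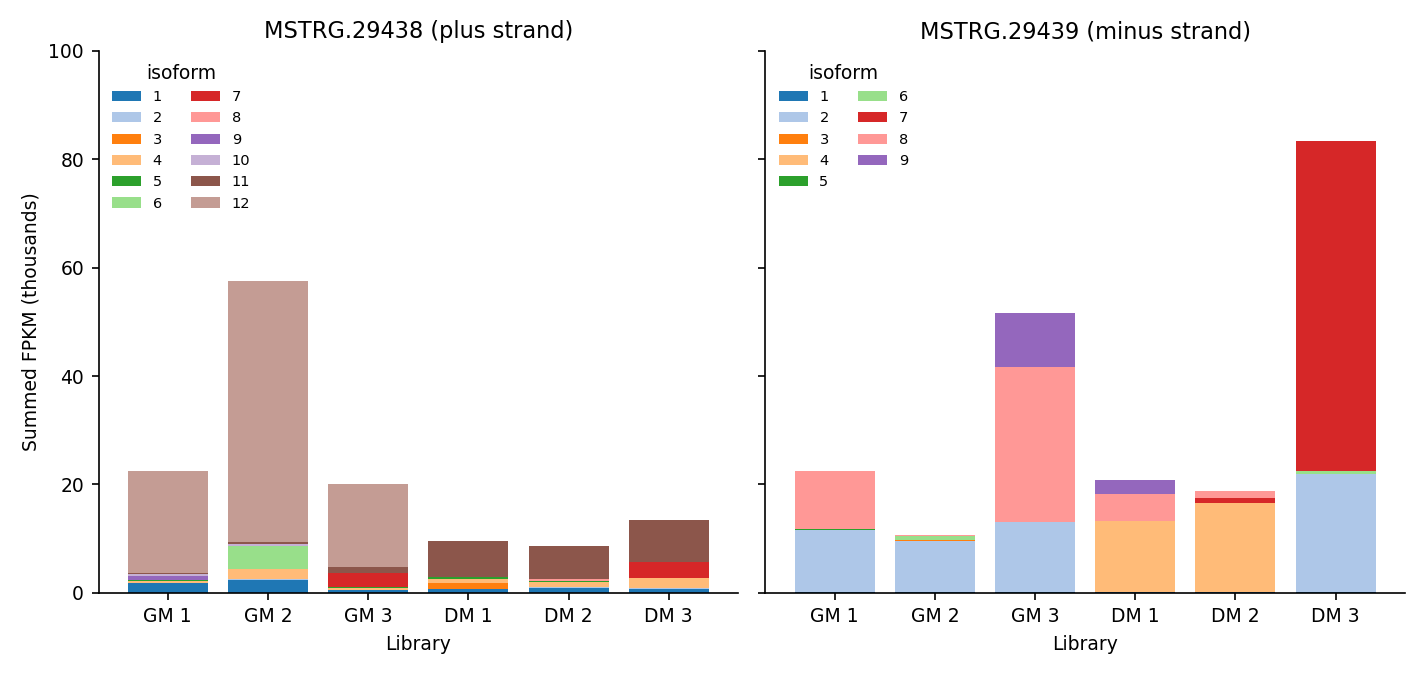
Summed FPKM (y axis, in units of 1000) of the isoforms of MSTRG.29438 and MSTRG.29439 in each library (x axis), with 1 colour per isoform within a panel. Isoform 12 on the left made up most of each GM bar and is missing from DM, where isoform 11 was the largest, and on the right the makeup changed between cultures of the same stage.

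Without these loci the agreement between libraries rose. Across tested members, which are not independent of each other, Pearson's r between libraries on the log2(FPKM + 1) scale ran from 0.620 to 0.806 within a stage and from 0.561 to 0.684 between stages. Without both loci it ran from 0.801 to 0.861 and from 0.692 to 0.774. The counts of calls in the set were 14 higher and 25 lower with both loci left out of the fit, where the share over all lncRNAs was not counted. The next most abundant lncRNA, MSTRG.29444.1 (minus strand, NW_013186121.1:53864-55711, 285 bases), varied little, with 407, 411 and 419 FPKM in GM and 353, 350 and 389 in DM (log2 fold change -0.18, limma adjusted p = 0.581).

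Outside these loci, members that shared a locus with another member also varied more than those that were the only member of their locus. A locus with only 1 member may still hold lncRNAs of other classes. The coefficient of variation between the 3 cultures of a stage was taken for each tested lncRNA. It had a median of 22.7% in GM and 27.1% in DM for the 539 that were the only member of the set in their locus. For the 246 in other loci with 2 or more members, MSTRG.29438 and MSTRG.29439 left out, it was 36.2% and 36.1%. For the sums of the latter loci it was 20.8% and 24.0%. Of all 806 tested members, 327 had a fold change above 0 and 479 below, so mixed signs are frequent between any members of the set. Outside MSTRG.29438 and MSTRG.29439, 91 loci had 2 or more tested members. Of these 91 loci, 38 had members with fold changes of both signs, and in 3 one isoform had a log2 fold change above 1 and another below -1.

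MSTRG.11109 is an example of such a locus (plus strand, NW_013185698.1:544110-577532). MSTRG.11109.2, with 6 exons and 4206 bases, had 0.0166, 0 and 0.111 FPKM in GM and 2.23, 1.82 and 2.20 in DM (log2 fold change 1.56, SE 0.17, limma adjusted p = 0.00638). MSTRG.11109.1, also with 6 exons and the same start, had 1.24, 2.03 and 0.703 FPKM in GM and 0.124, 0.0284 and 0.0238 in DM (log2 fold change -1.10, limma adjusted p = 0.0711). It was not called, although its stages did not overlap. The sum of the 4 isoforms was 4.72, 3.58 and 1.84 FPKM in GM and 6.55, 5.57 and 4.57 in DM, with overlapping stages and no call (log2 fold change 0.63, limma adjusted p = 0.157). The call of MSTRG.11109.2 held in 4 of the 6 fits with a library left out.

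In MSTRG.2350 the isoforms moved one way. This locus on the minus strand covers NW_013185658.1:11306711-11378108 and has 7 isoforms, of which 6 were tested, all with a log2 fold change above 0. MSTRG.2350.2 had 0.446, 0.178 and 0.579 FPKM in GM and 3.26, 1.94 and 1.53 in DM (log2 fold change 1.19, limma adjusted p = 0.0388). MSTRG.2350.4 had 0.877, 0.278 and 0.894 FPKM in GM and 2.64, 2.39 and 2.37 in DM (log2 fold change 1.06, limma adjusted p = 0.0335). Neither call held in any of the 6 fits with a library left out. The sum over isoforms was 6.55, 4.32 and 4.74 FPKM in GM and 18.3, 16.7 and 11.9 in DM and was called higher (log2 fold change 1.42, SE 0.20, limma adjusted p = 0.00883). One of the 3 lncRNAs with the most exons, MSTRG.2350.1, has 7 exons and belongs here, with 0.290, 0.397 and 0.00971 FPKM in GM and 1.18, 1.88 and 0.956 in DM (limma adjusted p = 0.0725).

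MSTRG.3580 fell in both of its isoforms (plus strand, NW_013185662.1:929676-950425, 3 exons each). MSTRG.3580.1 had 2.87, 2.19 and 3.01 FPKM in GM and 0.539, 0.655 and 0.356 in DM (log2 fold change -1.28, limma adjusted p = 0.0127). MSTRG.3580.2 had 1.61, 1.47 and 1.42 FPKM in GM and 0, 0.250 and 0.365 in DM (log2 fold change -1.06, limma adjusted p = 0.0342), a call that held in none of the 6 fits with a library left out.

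Summed over loci, 684 loci with a member of the set were tested, 17 were called higher and 27 lower in DM, beside 0.634% and 1.7% of all tested lncRNA loci. These sums take in every lncRNA of the locus, and 67 of the loci also hold lncRNAs of other classes. For 22 of the 42 called lncRNAs the locus holds no other lncRNA, so the sum is the transcript itself. Of the other 20 called lncRNAs, 12 belonged to a locus called the same way. In 13 loci the sum was called although no isoform was. The smallest adjusted p-value among these was that of MSTRG.15122 (plus strand, NW_013185730.1:869539-889098), which is named here after its values had been seen. Its 5 isoforms summed to 0.677, 1.01 and 0.619 FPKM in GM and 5.85, 6.34 and 6.32 in DM (log2 fold change 2.02, SE 0.16, limma adjusted p = 0.00065). The DM cultures were close in the sum but not in the isoforms. MSTRG.15122.4 had 1.79, 3.03 and 0.737 FPKM in DM, MSTRG.15122.1 had 0.129, 1.07 and 2.08, and MSTRG.15122.5, another lncRNA of 7 exons, was above 0 only in DM_1 (1.79 FPKM).

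**Figure D5:**
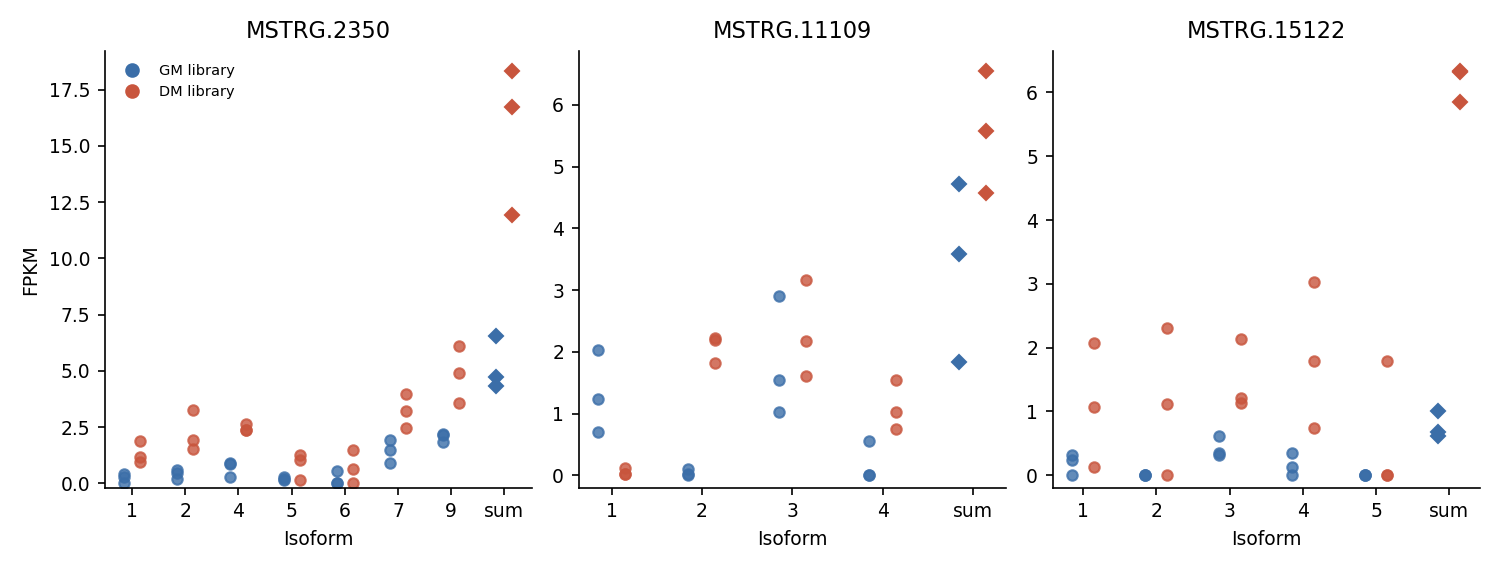
FPKM (y axis) of each isoform and of their sum (diamonds) at 3 loci, with GM libraries in blue and DM libraries in red. The sums of MSTRG.2350 and MSTRG.15122 were apart between stages, although isoforms 1, 2 and 5 of MSTRG.15122 overlapped, and in MSTRG.11109 isoform 1 was high in GM, isoform 2 was high in DM and the sums overlapped.

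The lncRNA with most exons outside these loci, MSTRG.3747.1 (7 exons, minus strand, NW_013185663.1:16887-106132), had 1.84, 3.46 and 2.69 FPKM in GM and 0.816, 1.95 and 0.141 in DM, with overlapping stages (limma adjusted p = 0.13). The 3 longest lncRNAs were not called. MSTRG.12143.1 had 3.85, 3.33 and 2.96 FPKM in GM and 5.33, 4.47 and 4.52 in DM (log2 fold change 0.40, limma adjusted p = 0.158). MSTRG.10418.1 had 5.20, 5.17 and 5.28 FPKM in GM and 3.78, 3.15 and 2.86 in DM (log2 fold change -0.55, limma adjusted p = 0.0775). MSTRG.2929.1 had 1.0005, 0.652 and 0.663 FPKM in GM and 0.960, 0.563 and 0.560 in DM (log2 fold change -0.07, limma adjusted p = 0.853).

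Genes near the called lncRNAs were read from the lncRNA table itself, as the genes named for other transcripts within 50000 bases, and from the locus numbers of the gene table. Loci with adjacent numbers lay on the same scaffold in 98.3% of 7941 pairs of lncRNA loci, a median of 3353 bases apart, so a gene with an adjacent number was taken as a neighbour whose distance is not known. Of the 42 called lncRNAs, 25 had a gene by either rule, and 18 had at least 1 tested gene. Of these 25 distinct tested genes 1 was called higher and 5 lower in DM, beside 2.18% and 1.84% of the 10381 tested genes. The genes and the lncRNAs were measured in the same 6 libraries.

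Next in number to MSTRG.21788.1 was SARDH, the mitochondrial sarcosine dehydrogenase, with 6.02, 6.63 and 6.89 FPKM in GM and 1.04, 1.14 and 0.924 in DM (log2 fold change -1.89, SE 0.09, limma adjusted p = 0.000152). The gene on the other side in number, ADAMTSL2, had 9.53, 7.96 and 7.84 FPKM in GM and 14.7, 11.2 and 10.4 in DM and was not called (log2 fold change 0.46, limma adjusted p = 0.0541). Next to MSTRG.5200.1 was TGFB2, a ligand of the TGF-beta family, with 91.8, 88.3 and 96.4 FPKM in GM and 41.0, 36.1 and 35.0 in DM (log2 fold change -1.28, SE 0.08, limma adjusted p = 0.000276). MSTRG.21788.1, SARDH, MSTRG.5200.1 and TGFB2 were called lower in DM, and ADAMTSL2 was not. With a library left out, the call of MSTRG.21788.1 held in all 6 fits and that of MSTRG.5200.1 in 4 of the 6 (limma adjusted p up to 0.0516).

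LOC106049124, annotated as protein MRP-126, was next in number to MSTRG.28448.1. It had 5.85, 6.78 and 7.43 FPKM in GM and 0.390, 1.84 and 2.21 in DM (log2 fold change -1.72, limma adjusted p = 0.0108). A transcript that shares a junction with LOC106038139, annotated as like the antimicrobial peptide THP2, lay 3913 bases from MSTRG.13757.1. LOC106038139 had 1.32, 1.88 and 1.37 FPKM in GM and was listed at 0 in DM. The lncRNA MSTRG.13757.1 itself had 0, 0.200 and 0 FPKM in DM after 2.79, 1.80 and 1.30 FPKM in GM. In the other direction, AGTR2, an angiotensin II receptor gene, was next to MSTRG.12863.1. AGTR2 had 0.811, 0.738 and 1.01 FPKM in GM and 12.4, 4.37 and 5.15 in DM (log2 fold change 2.04, limma adjusted p = 0.00756), and MSTRG.12863.1 had 0.430, 0.576 and 0.380 FPKM in GM and 1.55, 2.24 and 2.82 in DM. The calls of MSTRG.13757.1 and MSTRG.12863.1 each held in 1 of the 6 fits with a library left out, and that of MSTRG.28448.1 in all 6.

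Other neighbours passed the test of the stage without the limit on the fold change. The share of all tested genes that did so was not counted. Among them were SBF1 and ENAH, next in number to MSTRG.28064.6 and MSTRG.5154.1 (log2 fold changes -0.56 and -0.90, limma adjusted p = 0.00145 and 0.00475). The locus named ADGRG1 and ADGRG3 and the gene PCSK7 also passed (log2 fold changes -0.37 and -0.29, limma adjusted p = 0.0157 and 0.0172). IL6, a cytokine gene, lay 2662 bases from MSTRG.3285.1 by a transcript of its locus. It had 2.34, 1.82 and 1.94 FPKM in GM and 0.848, 0.706 and 0.548 in DM (log2 fold change -0.84, limma adjusted p = 0.0026). A transcript nearer to MSTRG.3285.1, at 532 bases, shares a junction with LOC106030196, for which no FPKM of the gene was found. A transcript in an intron of SDK1, a cell adhesion gene, lay 11158 bases from MSTRG.5995.1. SDK1 had 1.85, 1.89 and 1.79 FPKM in GM and 4.63, 4.55 and 4.15 in DM (log2 fold change 0.94, limma adjusted p = 0.000653). A transcript that overlaps exons of WNT9A, a Wnt ligand gene, overlapped MSTRG.11983.5, and WNT9A had 3.97, 2.94 and 3.23 FPKM in GM and 2.59, 1.57 and 1.45 in DM (log2 fold change -0.63, limma adjusted p = 0.0402). Not all neighbours passed the test. LOC106029486, next in number to MSTRG.29773.1, overlapped between stages (log2 fold change -0.23, limma adjusted p = 0.853). LOC106032071, next in number to MSTRG.5995.1, had a log2 fold change of 0.31 (limma adjusted p = 0.108). A transcript that shares a junction with EIF4EBP1, which encodes a repressor of translation initiation, lay 24171 bases from MSTRG.22200.1. EIF4EBP1 had a limma log2 fold change of -0.17 and an adjusted p of 0.177, while MSTRG.22200.1 had 5.02, 4.99 and 6.40 FPKM in GM and 2.08, 1.74 and 2.87 in DM. A nearer transcript, at 10749 bases, shares a junction with BAG4, which was not called (log2 fold change -0.01, limma adjusted p = 0.925). With a library left out, the call of MSTRG.22200.1 held in 1 of the 6 fits and that of MSTRG.3285.1 in 0.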

How the data were processed

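Per the labels and the study's methods, the authors used Cutadapt for trimming, aligned the reads to GooseV1.0, assembled and merged transcripts with StringTie and gffcompare, and deposited FPKM per gene and per lncRNA from StringTie and Ballgown. The methods name Bowtie2 as mapper and the submitters' processing notes HISAT2 and TopHat, so the mapper is uncertain. The tables' own comparison columns (fold change, its log2, p-value, q-value and call) were not used. Log2(FPKM + 1) of 12988 lncRNAs with a mean of at least 0.5 FPKM was fitted in limma 3.58.1 (R 4.3.3, eBayes with trend), with Benjamini-Hochberg adjustment. The method was also run on simulated rows with independent noise, which do not share reads as isoforms do, and no result here rests on that run. Class levels were compared with exact sign-flip tests (Python 3.11.15). No counts were used, so depth is unknown, precision is limited by the number of libraries, and 3 against 3 libraries cannot give an exact permutation p under 0.1.

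Members and lists were chosen with earlier results of these data known. Named lncRNAs were the 10 higher and 10 lower with the smallest adjusted p-values, the 5 of highest mean, the 3 with most exons, the 3 longest, those in loci with 2 or more called members and those called and at 0 throughout a stage. The rule for neighbouring genes, the locus clusters, the scaling to genes, the fit without 2 loci and the limit on exon gaps were chosen after seeing the data. 0 per-sample columns were left out. Sequences were not used here, and a result on 1 neighbouring gene is not reported here.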

Additional observations from a re-analysis of the deposited data

How the results depend on the processing

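The counts of intergenic multi-exon lncRNAs higher and lower in DM (15 and 27) were within 1.5 times with a pseudocount of 0.1, no filter, detection in all 3 libraries of a stage, no trend, locus sums, scaling to the median of the genes, both high loci left out and exon gaps of at least 50 bases. A mean of at least 2 FPKM gave 6 higher. Quantile normalization gave 27 higher and 16 lower, and scaling to the median of the tested lncRNAs gave 31 and 11. An unadjusted p-value gave 25 higher, and no limit on the fold change gave 28 and 46. Leaving out each library gave 5 to 12 higher and 8 to 26 lower. Shares over all lncRNAs were counted only for the main fit, quantile normalization, scaling to the median of the tested lncRNAs and locus sums. The replicate block gave 5 higher and 12 lower. The pairing it assumes is not stated by the labels. Deviations of same-numbered libraries correlated at 0.0945, 0.0643 and 0.0280. Each GM library, DM_1 and DM_2 correlated best with their own number, and DM_3 did not.

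The median log2 fold change of the set (-0.14) was -0.22 with a pseudocount of 0.1, -0.084 at a mean of at least 2 FPKM, 0.031 after quantile normalization and 0.12 after scaling to the median of the tested lncRNAs, and ran from -0.17 to -0.12 with a library left out. The level against intronic multi-exon lncRNAs (-0.10) was 0.039 with rows at 0.0001 FPKM left out (exact p = 0.625) and -0.20 with 3 or more exons, and ran from -0.14 to -0.05 with a library left out. Those against single-exon intergenic, antisense exonic and all other lncRNAs kept their sign in each alternative, with 0.46 to 0.58, -0.26 to -0.24 and 0.39 to 0.50 with a library left out, where 5 libraries cannot give an exact p under 0.0625. Of the 25 named and called lncRNAs, between 13 and 20 stayed called with a library left out and 13 with the block, and none changed sign. The causes were not tested.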
